A study of Mus musculus with 5 samples.

Results

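Transcripts of 9 genes of transforming growth factor beta (TGF-beta) signalling were followed in whole lung of mice with raised right ventricular pressure of either of 2 origins. The genes were the ligands Tgfb1, Tgfb2 and Tgfb3, the latent ligand carrier Ltbp3, the activator Thbs1, and the target genes Ccn2, Tgfbi, Skil and Pmepa1. Members were chosen by name: every probe set that the platform annotation gives to 1 of these genes alone was taken, and the probe set with the highest mean intensity over the arrays stood for its gene. This gave 9 of the 12393 genes on the array and 19 of its 22626 probe sets.

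Each of 5 conditions was measured on 1 oligonucleotide array hybridised with RNA pooled over animals. The induced pool came from SM22-tet-BMPR2delx4+ mice on doxycycline (dox), in which the smooth muscle SM22 promoter and doxycycline together turn on a mutant BMPR2, a receptor for bone morphogenetic proteins (BMPs), that blocks the normal one; right ventricular pressure there was 50 ± 8 mmHg. Hypoxic lungs were those of FVB/N mice 8 weeks old, kept in hypoxia for 4 weeks and likewise at 50 ± 8 mmHg. Pools at a normal pressure of 30 ± 3 mmHg were SM22-rtTA mice on doxycycline, with the activator but no mutant receptor; SM22-tet-BMPR2delx4+ mice without doxycycline (the uninduced pool); and wild-type FVB/N mice 8 weeks old. For the 3 transgenic pools the labels state 8 weeks but not whether as an age or a treatment time, and the strain of those mice is not given in the labels. Neither the number of animals in a pool nor the kind of error after each pressure is stated. With no replicate array there is no test, and every difference below is a difference between 2 arrays. In whole lung, fewer cells of a type and less RNA per cell cannot be told apart.

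TGF-beta ligands are secreted as inactive dimers, held by their own propeptides and anchored in the matrix by latent TGF-beta binding proteins. Integrins, proteases and thrombospondin can release the active ligand, which binds a pair of serine/threonine kinase receptors; these phosphorylate SMAD2 and SMAD3, which enter the nucleus with SMAD4. BMPs signal through BMPR2 to other receptor SMADs and share SMAD4. In lung vessels TGF-beta is known for driving matrix production and the contractile state of smooth muscle and fibroblasts.

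Values are deposited intensities, scaled so that all arrays share a median over well-expressed probe sets. A noise floor was set at a scaled intensity of 276, the median of all scaled values, and lower values were raised to it before a ratio was taken. Each of the 9 genes exceeded the floor in 1 pool or more, and 8 of 9 did so everywhere, the exception being Tgfb2, which was under it in wild type. The SD of the log2 ratio between the 2 transgenic normal-pressure pools, taken across genes that exceeded the floor everywhere, was 0.34, and is used below as the spread of these arrays. It holds differences in genotype and doxycycline as well as noise. The same SD was larger against wild type: 0.62 for SM22-rtTA, 0.63 for the uninduced pool and 0.55 for hypoxia. A step from wild type beyond 0.34 can thus be ordinary for that array. A gene was called higher or lower where it differed at least 1.5-fold from its matched control and lay beyond all 3 normal-pressure pools. The matched control was the uninduced pool for the induced pool and wild type for the hypoxic pool.

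The wild-type pool held transcripts of another organ. Markers of kidney tubule, 9 of 9 with a probe set, summed to between 2688 and 3504 in the other 4 pools with 7 or 8 of 9 at the floor, against 52001 in wild type with none at the floor. The sums of skeletal muscle and squamous epithelium markers stood apart in both raised-pressure pools, and that of cardiac muscle markers in the induced pool. The 10 skeletal muscle markers summed to 58965 in the induced pool and 16607 in the hypoxic pool, against 3961 to 5585 in the normal-pressure pools. The 7 cardiac muscle markers summed to 24875 in the induced pool and 9214 in the hypoxic pool, against 10861 to 11187. The 7 squamous markers summed to 14979 in the induced pool and 23814 in the hypoxic pool, against 2535 to 2614. Single markers did not all follow. In the induced pool 10 of 10 skeletal muscle, 6 of 7 cardiac and 6 of 7 squamous markers were called higher. In hypoxia the counts were 7 of 10, 0 of 7 and 5 of 7. Of all genes above the floor in 1 pool or more, 3.3% and 4.23% were called higher in these 2 pools. Alveolar and airway markers were high in every pool: the 5 alveolar type 2 markers summed to between 25964 and 36586 and the 3 club cell markers to between 29657 and 32216, with none at the floor. Cartilage markers were at the floor in at least 5 of 7 cases in each pool.

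Promoter sequences were held for 4 of the 9 genes, and the 3 whose annotated start is the outer end of the gene are given here. Tgfb1 and Tgfbi each spanned 2.10-fold over the pools, the widest ranges of the 9 genes once low values are raised to the floor, where the 1.90-fold range of Tgfb2 is a lower bound. Ltbp3 is the latent ligand carrier. Each is the 250 bases before the start, 5′ to 3′, from RefSeq on GRCm38.p6. Capitals mark CAGAC or its reverse complement GTCTG, the short element that SMAD3 and SMAD4 can bind.

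Tgfb1, chr7:25686752-25687001, plus strand: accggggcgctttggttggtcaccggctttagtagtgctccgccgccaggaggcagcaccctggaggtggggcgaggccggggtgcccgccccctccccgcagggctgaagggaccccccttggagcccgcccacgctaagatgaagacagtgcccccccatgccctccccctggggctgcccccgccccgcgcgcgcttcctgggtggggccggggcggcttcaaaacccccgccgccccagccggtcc
Ltbp3, chr19:5740650-5740899, plus strand: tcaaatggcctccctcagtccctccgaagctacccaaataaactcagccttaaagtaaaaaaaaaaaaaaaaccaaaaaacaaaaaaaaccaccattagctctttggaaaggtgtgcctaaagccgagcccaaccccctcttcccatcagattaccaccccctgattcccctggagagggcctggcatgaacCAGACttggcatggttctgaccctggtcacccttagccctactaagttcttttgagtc
Tgfbi, chr13:56609336-56609585, plus strand: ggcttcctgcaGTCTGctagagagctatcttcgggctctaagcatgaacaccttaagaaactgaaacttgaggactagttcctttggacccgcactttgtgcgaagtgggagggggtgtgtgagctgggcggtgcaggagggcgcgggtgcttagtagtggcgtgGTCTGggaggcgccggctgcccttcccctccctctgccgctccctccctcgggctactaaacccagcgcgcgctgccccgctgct

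The Tgfb1 stretch held no match and was 75.2% G or C, against a median of 52.4% over all promoters of the table. The Ltbp3 stretch held 1 match, beginning at position -58 relative to the start, and the Tgfbi stretch held 2, beginning at -239 and -85. On either strand, 42.2% of the 32851 stretches of this length held at least 1 match and 11.7% at least 2, so such matches are common. They are a description of the letters and not of binding.

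Tgfb1, the ligand most often studied in fibrosis, was at 594 in the induced pool, 853 in the hypoxic pool, 1249 in SM22-rtTA, 703 in the uninduced pool and 623 in wild type. The SM22-rtTA pool was the highest by more than the spread of the arrays, and no other neighbours in the order were further apart than that spread. The induced pool was the lowest of the 5. Its log2 ratio was -0.24 over the uninduced pool and -1.07 over SM22-rtTA, a level 2.10-fold lower than in SM22-rtTA mice, which also received doxycycline. The 2 controls of the induced pool thus differed from each other by 0.83 on the log2 scale, with SM22-rtTA on top. In hypoxia the log2 ratio was 0.45 over wild type and -0.14 over the mean of the transgenic normal-pressure pools. The 8 endothelial markers, none at the floor, summed to 18254 in the induced pool and 24002 in the hypoxic pool. In the normal-pressure pools their sums were 26606 in SM22-rtTA, 24270 in the uninduced pool and 16613 in wild type. Of the 8, 7 were lower in the induced than in the uninduced pool and 1 was higher, Kdr, at 3212 against 2847. The 8 macrophage markers summed to 9370 in the induced pool, 15327 in the hypoxic pool, 13609 in SM22-rtTA, 12393 in the uninduced pool and 12777 in wild type, with 2 to 4 at the floor in each pool. Of the 6 measured macrophage markers, 3 were higher in the induced than in the uninduced pool. The 2 lower ones were Chil3, at 318 against 439, and Lyz2, at 5464 against 8559. The part of either marker set in the Tgfb1 values was not tested.

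Tgfb2, a ligand needed for heart and lung development, was at 432 in the induced pool, 526 in the hypoxic pool, 504 in SM22-rtTA, 323 in the uninduced pool and 198 in wild type, the last under the floor. The hypoxic and SM22-rtTA pools were 0.06 apart on the log2 scale, and with wild type set to the floor, the step between the induced and the uninduced pool was the single one wider than the spread. In hypoxia Tgfb2 was at least 1.90-fold higher than wild type and was called higher, lying 1.04-fold above SM22-rtTA. That call rests on which probe set stands for the gene. The probe set used had a mean of 396.6 and a second one 396.4, and the second read 400 in the induced pool, 409 in the hypoxic pool, 534 in SM22-rtTA, 286 in the uninduced pool and 352 in wild type. By the second probe set the hypoxic pool was 1.16-fold above wild type and below SM22-rtTA, and was not called. The remaining Tgfb2 probe set was under the floor in every pool. Both informative probe sets put the induced pool above the uninduced pool, with log2 ratios of 0.42 and 0.49, and SM22-rtTA above the uninduced pool by 0.64 and 0.90.

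Tgfb3, a ligand known for its role in palate and lung development, was at 584 in the induced pool, 454 in the hypoxic pool, 579 in SM22-rtTA, 520 in the uninduced pool and 299 in wild type. Wild type was the lowest by more than the spread, and the other 4 pools followed each other within it. The induced pool lay 1.01-fold above the highest normal-pressure pool, with log2 ratios of 0.17 over the uninduced pool and 0.01 over SM22-rtTA; with values as deposited the second ratio was -0.06. In hypoxia Tgfb3 was 1.52-fold above wild type but inside the range of the normal-pressure pools, and its log2 ratio over the mean of the transgenic pools was -0.27. With a floor at the 70th percentile, hypoxia, the uninduced pool and wild type were all at the floor and the ratio over wild type was 0.00.

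Ltbp3 encodes a latent TGF-beta binding protein that is secreted with the ligand and is needed for its deposition in the matrix. It was at 1194 in the induced pool, 684 in the hypoxic pool, 831 in SM22-rtTA, 986 in the uninduced pool and 679 in wild type. The induced pool was 1.21-fold above the highest normal-pressure pool, with log2 ratios of 0.28 over the uninduced pool and 0.52 over SM22-rtTA, and no step between neighbouring pools was wider than the spread. A second probe set gave 676 in the induced pool, 575 in the hypoxic pool, 855 in SM22-rtTA, 724 in the uninduced pool and 560 in wild type, so that the ratios of the induced pool were -0.10 and -0.34. The 2 probe sets thus disagree on the direction after induction. Both put hypoxia level with wild type, at 0.01 and 0.04. The 8 smooth muscle markers summed to 18643 in the induced pool, 11238 in the hypoxic pool, 10255 in SM22-rtTA, 15588 in the uninduced pool and 8386 in wild type, with 0 or 1 at the floor; their part in the value of the first probe set was not tested.

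Thbs1 encodes thrombospondin-1, a matrix glycoprotein of platelets and stromal cells that can activate latent TGF-beta. It was at 836 in the induced pool, 1165 in the hypoxic pool, 1167 in SM22-rtTA, 942 in the uninduced pool and 615 in wild type. The second probe set ordered the pools alike from the highest, SM22-rtTA, down to wild type, with 448 in the induced pool, 628 in the hypoxic pool, 850 in SM22-rtTA, 589 in the uninduced pool and 378 in wild type. In hypoxia the log2 ratio over wild type was 0.92, or 1.90-fold, and 0.73 by the second probe set. Neither was called, because SM22-rtTA was as high, and over the mean of the transgenic pools the ratios were 0.15 and -0.17. After induction the ratios were -0.17 and -0.39 over the uninduced pool and -0.48 and -0.92 over SM22-rtTA. Platelet markers ran otherwise: the 7 with a probe set summed to 6156 in the induced pool, 3583 in the hypoxic pool, 4410 in SM22-rtTA, 4204 in the uninduced pool and 2488 in wild type, with 1 to 3 at the floor. Immediate early and handling stress genes, which tissue handling can move, summed to 22746 in the induced pool, 22313 in the hypoxic pool, 19429 in SM22-rtTA, 23214 in the uninduced pool and 17620 in wild type, with 1 of 8 at the floor in each. The part of either in the Thbs1 values was not tested.

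**Figure D1:**
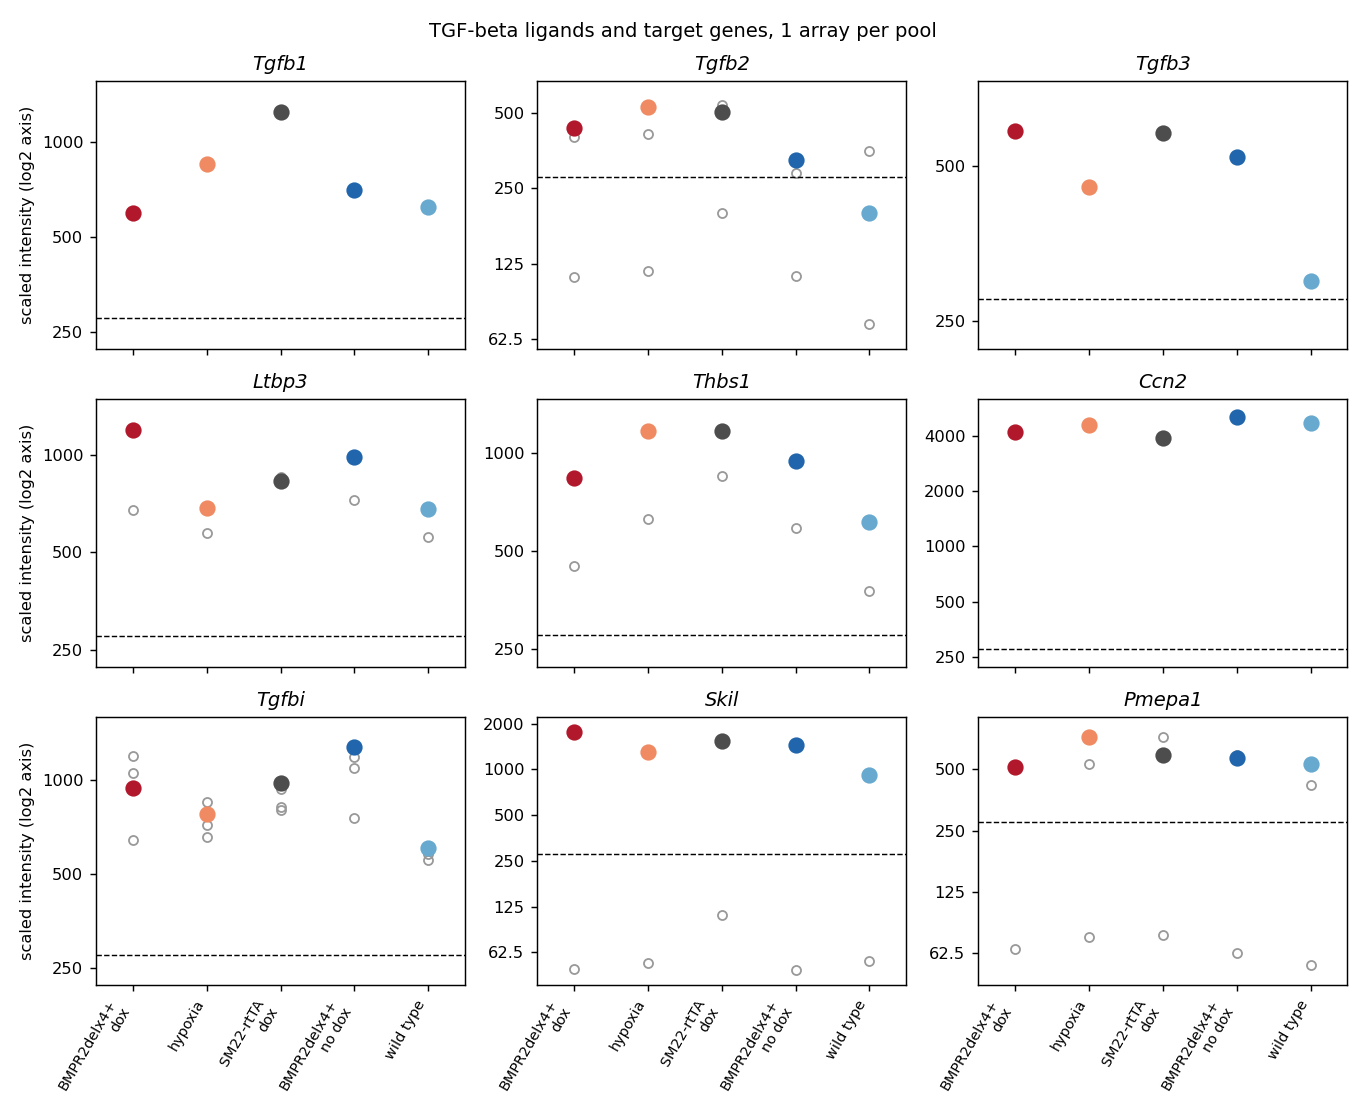
Scaled intensity (log2 axis) of the 9 genes in each of the 5 pools, 1 array a pool. Filled points are the probe set that stands for the gene, open points its other probe sets, and the dashed line is the noise floor of 276. Wild type is the lowest filled point for 6 of the 9 genes, and Ccn2 is nearly level at 3888 to 5060.

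Ccn2, connective tissue growth factor, is a matricellular protein and one of the best known transcriptional targets of TGF-beta. It was at 4187 in the induced pool, 4574 in the hypoxic pool, 3888 in SM22-rtTA, 5060 in the uninduced pool and 4701 in wild type. Its 5 values spanned 1.30-fold, the narrowest range of the 9 genes. No neighbours in the order were further apart than the spread of the arrays, and both raised-pressure pools lay inside the range of the normal-pressure pools. The log2 ratio was -0.27 for induction. For hypoxia over wild type it was -0.04, and 0.01 with values as deposited and 0.20 after quantile normalization.

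Tgfbi encodes a secreted matrix protein that was first found as a TGF-beta induced transcript. By the probe set that stands for it, it was at 946 in the induced pool, 776 in the hypoxic pool, 976 in SM22-rtTA, 1271 in the uninduced pool and 604 in wild type. Both raised-pressure pools were inside a normal-pressure range that itself spanned 2.10-fold. Its log2 ratios were -0.43 for induction and 0.36 for hypoxia, with 4 of 4 probe sets above 0 in hypoxia, from 0.10 to 0.55. For induction 3 of 4 probe sets were below 0 and 1 above, from -0.43 to 0.01. Over SM22-rtTA the induced pool had log2 ratios of -0.05 by this probe set and -0.55, 0.40 and 0.54 by the others, so no direction can be given there.

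Skil encodes SnoN, a nuclear repressor of SMAD transcription that TGF-beta induces and that limits the response. It was at 1765 in the induced pool, 1293 in the hypoxic pool, 1527 in SM22-rtTA, 1454 in the uninduced pool and 922 in wild type. Wild type was lowest by 0.49 on the log2 scale, more than the spread but less than the 0.55 SD of hypoxia over wild type. The induced pool was 1.16-fold above the highest normal-pressure pool. The log2 ratios of the induced pool were 0.28 over the uninduced pool and 0.21 over SM22-rtTA, both within the spread. In hypoxia they were 0.49 over wild type and -0.20 over the mean of the transgenic pools. The second Skil probe set was under the floor in all pools and gives no ratio.

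Pmepa1 encodes a membrane protein that binds receptor SMADs and restrains TGF-beta signalling, itself a target of the pathway. It was at 515 in the induced pool, 719 in the hypoxic pool, 590 in SM22-rtTA, 564 in the uninduced pool and 530 in wild type. The 3 normal-pressure pools were within 1.11-fold of each other, the tightest of the 9 genes, and the hypoxic pool was 1.22-fold above them. Its log2 ratio was 0.44 over wild type and 0.32 over the mean of the transgenic pools, under 1.5-fold in both cases. A second probe set gave 506 in the induced pool, 527 in the hypoxic pool, 715 in SM22-rtTA, 585 in the uninduced pool and 418 in wild type. That puts both raised-pressure pools inside the normal-pressure range, with hypoxia at -0.29 over the transgenic pools. The remaining probe set was under the floor throughout.

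Induction of BMPR2delx4+ moved none of the 9 genes beyond the rule: 0 of 9 were called higher and 0 of 9 lower, where 3.3% of the 8597 genes measured were called higher and 1.33% lower. With so low a background, 0 of 9 does not set these genes apart from the rest. By the matched ratio alone 0 of 9 were 1.5-fold apart either way, where 5.09% of measured genes were higher and 2.58% lower; with the wild-type pool left out of the rule 0 of 9 were called, where 5% were called higher and 2.23% lower. The median log2 ratio of the 9 genes was -0.13, with 4 above 0 and 5 below, against 0.00 over all measured genes, of which 44.9% were above 0. Over SM22-rtTA, 1 of 9 was at least 1.5-fold lower, namely Tgfb1, and 0 higher, where 6.16% of measured genes were lower and 9.79% higher. The member median there was -0.05. Relative to the range of the normal-pressure pools, the induced pool was above it for 3 genes (Tgfb3, Ltbp3 and Skil), below it for 2 (Tgfb1 and Pmepa1) and inside it for 4, and never by more than 1.21-fold. By their second probe sets Ltbp3 and Pmepa1 were inside the range. A further Tgfbi probe set put the induced pool above it, at 1192 against 1180 in the uninduced pool.

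In hypoxia 1 of 9 genes, Tgfb2, was called higher than wild type and 0 were called lower, where 4.23% of measured genes were called higher and 4.82% lower. By the matched ratio alone 3 of 9 were at least 1.5-fold higher, namely Tgfb2, Tgfb3 and Thbs1, where 7.64% of measured genes were, and 0 lower, where 12% were. The member median was 0.45, with 8 of 9 genes above 0, against 0.03 over all measured genes, of which 53.2% were above 0. Over the mean of the transgenic normal-pressure pools the member median was -0.14, with 4 genes above 0 and 5 below, and 0 of 9 were 1.5-fold apart, where 12.1% of measured genes were higher and 4.18% lower. The hypoxic pool was inside the normal-pressure range for 7 genes and above it for 2, Tgfb2 and Pmepa1. By the second probe set of either gene the hypoxic pool was inside the range.

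**Figure D2:**
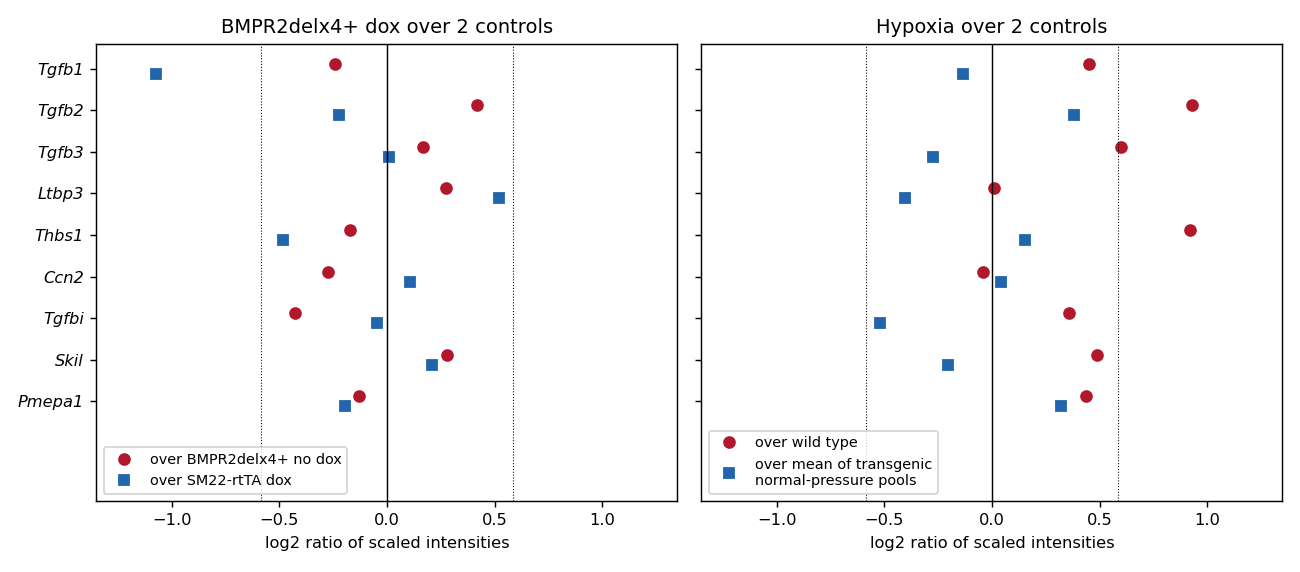
Log2 ratio of the 9 genes in the induced pool (left) and the hypoxic pool (right), each over 2 controls; circles are the matched control, squares the other, and dotted lines mark 1.5-fold. In hypoxia 8 of 9 circles lie above 0, while the squares over the transgenic pools are divided 4 to 5.

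The normal-pressure pools also differed among themselves. SM22-rtTA was at least 1.5-fold above wild type in 6 of 9 genes (Tgfb1, Tgfb2, Tgfb3, Thbs1, Tgfbi and Skil) and below it in 0, where 10.3% of measured genes were higher and 17.8% lower. The uninduced pool was so above wild type in 4 of 9 (Tgfb3, Thbs1, Tgfbi and Skil) and below it in 0, where 13.1% were higher and 17.2% lower. The member medians over wild type were 0.73 for SM22-rtTA and 0.54 for the uninduced pool, against 0.00 over all measured genes in both comparisons. These 2 comparisons and that of hypoxia share the wild-type array. Wild type was the lowest of the 5 pools for 6 of the 9 genes, as it was for 23.6% of all measured genes, and the highest for 0, against 24.9%. The induced pool was the lowest for 2 and the highest for 3, where it was so for 11.8% and 19.9% of measured genes, and the hypoxic pool for 0 and 2, against 14.9% and 23.5%. SM22-rtTA was the lowest for 1 and the highest for 2, against 16% and 15.2%, and the uninduced pool for 0 and 2, against 9.58% and 16.4%. A measured gene tied at the floor in 2 or more pools has no lowest pool here. Each of the 9 genes has one, so the shares for lowest pools are not a like-for-like background. The kidney tubule markers given above were high in the wild-type array. The 5 adipose markers with a probe set had their highest sum there, at 4137 against 1558 to 3721 in the other 4 pools. The alveolar type 2 sum was also highest there, with Napsa at 7080 against 1452 to 3549 in the other 4 pools. Of the 5 alveolar type 2 markers, 3 were lower and 2 higher in hypoxia than in wild type. The sum of the 5 alveolar type 1 markers was lowest there, at 16547 against 19487 to 24216 in the other 4 pools. Single markers did not all follow the sums. Ucp1 was at 1600 in the induced pool against 797 in wild type, and Ager at 5133 against 5390. Slc34a2 was at 7279 in the hypoxic pool against 5644 in wild type. The 10 fibroblast markers summed to between 29055 and 32624 in the other 4 pools, against 27972 in wild type, and the endothelial, smooth muscle and platelet sums given above were lowest there too. Over wild type, 7 of 10 fibroblast, 8 of 8 endothelial and 6 of 8 smooth muscle markers were higher in hypoxia. Inmt was highest in wild type, at 11144. Emcn was at 863 there against 550 in the induced pool, and Smtn at 646 against 557 in SM22-rtTA. The part of any of these in the low values of the 9 genes was not tested. Values as deposited raised the median of genes above the floor by 0.24 for SM22-rtTA and 0.20 for the uninduced pool relative to wild type, and the member medians to 0.97 and 0.74.

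Between the 2 transgenic controls, Tgfb1 and Tgfb2 were 1.78-fold and 1.56-fold higher in SM22-rtTA than in the uninduced pool, 2 of 9 genes where 3.05% of measured genes were higher, and 0 of 9 were lower, where 4.57% were. The member median was 0.07. Set directly against each other, the induced and the hypoxic pool differed at least 1.5-fold in 1 of 9 genes, Ltbp3, which was 1.75-fold higher in the induced pool, where 10.8% of measured genes were; 0 of 9 were lower, where 11.4% were. By the second Ltbp3 probe set that ratio was 0.23 on the log2 scale. The member median was -0.13.

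**Figure D3:**
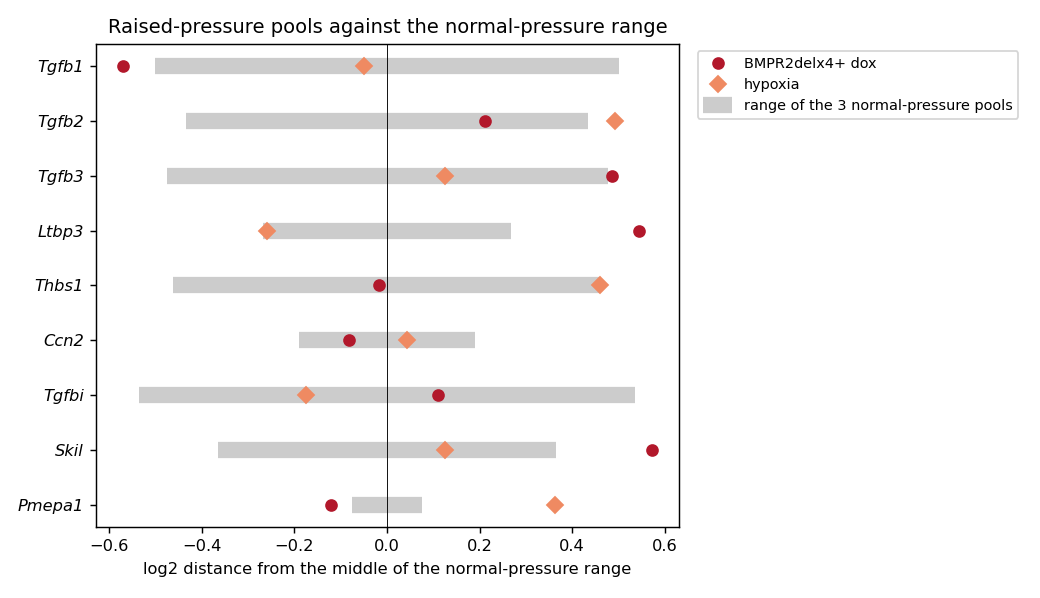
Position of the induced pool (circles) and the hypoxic pool (diamonds) for the 9 genes, as log2 distance from the middle of the range of the 3 normal-pressure pools (grey bars). The circles lie beyond the bar for 5 genes and the diamonds for 2, the widest overshoot being 1.22-fold for Pmepa1 in hypoxia. Only the probe set that stands for each gene is shown.

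Other genes of the pathway were taken from lists that leave out the 9, and their counts stand beside the shares of all measured genes: 3.3% called higher and 1.33% lower after induction, and 4.23% and 4.82% in hypoxia. With the wild-type pool left out these shares were 5% and 2.23% for induction and 12.1% and 4.18% for hypoxia. Of 16 measured genes for storage, activation and binding of the ligands, 1 was called higher and 1 lower after induction, with a median log2 ratio of -0.17 over the uninduced pool and 0.00 over SM22-rtTA. Aspn, asporin, a small proteoglycan that binds TGF-beta, was at 657 in the induced pool against 435 in the uninduced pool, and Tgm2, a crosslinking transglutaminase, at 2832 against 4358. Both were near the 1.5-fold limit, Aspn at 1.51-fold higher and Tgm2 at 1.54-fold lower. In hypoxia 2 were called higher and 0 lower, with a median of 0.28 over wild type and 0.15 over the transgenic pools, and 1 was higher and 0 lower without the wild-type pool. The called genes were the proteoglycan Fmod, at 457 in the hypoxic pool against 281 in wild type, and Vasn, a membrane protein that traps TGF-beta, at 921 against 601. The margin for Vasn was narrow, with the uninduced pool at 886.

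Among 6 receptors and co-receptors, the endothelial co-receptor Eng was called lower after induction, and 0 were called higher. Eng was at 2651 in the induced pool against 4497 in the uninduced pool and 3865 in SM22-rtTA. The margin was narrow, with wild type at 2906. The list median was -0.44 over the uninduced pool and -0.61 over SM22-rtTA, with 5 of 6 below 0 in the first comparison. The endothelial marker sum was 18254 in the induced pool, against 24270 in the uninduced pool and 26606 in SM22-rtTA, and its part was not tested. In hypoxia 0 of 6 were called. Tgfbr2, the ligand-binding receptor, was at 2779 in the hypoxic pool against 1952 in wild type, 2921 in SM22-rtTA and 2455 in the uninduced pool. The list median was 0.29 over wild type and -0.08 over the transgenic pools.

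Of 9 measured SMADs and their regulators, Smad7, the inhibitory SMAD that both TGF-beta and BMP induce, was called lower after induction, and 0 were called higher. It was at 862 in the induced pool against 1299 in the uninduced pool, 1618 in SM22-rtTA and 1257 in wild type. At 1.51-fold under the uninduced pool it only just passed the rule. In hypoxia 0 of 9 were called, and 1 was lower without the wild-type pool. Smad4, the shared SMAD, was at 1613 in the hypoxic pool against 1461 in wild type, 1756 in SM22-rtTA and 2043 in the uninduced pool. The repressor Ski was at 1845 against 1432, 1783 and 1847 in the same order. The list medians were -0.15 over the uninduced pool and -0.17 over SM22-rtTA for induction, and 0.14 over wild type and 0.01 over the transgenic pools for hypoxia.

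Of 20 measured further target genes, 1 was called higher and 1 lower after induction, with a median of -0.00 over the uninduced pool and -0.09 over SM22-rtTA; without the wild-type pool 1 was called higher and 3 lower. Tpm1, a tropomyosin that striated muscle also expresses, was at 6949 in the induced pool against 2241 in the uninduced pool, with 1 of 3 probe sets of the opposite sign, beside the skeletal muscle marker sums given above. Igfbp3, a binding protein for insulin-like growth factors, was at 409 against 921. In hypoxia 3 were called higher and 2 lower. Junb, an AP-1 subunit, was at 2482 in the hypoxic pool against 1164 in wild type, elastin Eln at 2526 against 1402, and fibronectin Fn1 at 3331 against 2120. Igfbp3 was under the floor in the hypoxic pool against 919 in wild type, and Timp3, an inhibitor of metalloproteinases named here after its values were seen, was at 4216 against 6525. The margin for Timp3 was narrow, with the uninduced pool at 4310. The median over wild type was 0.43, and over the transgenic pools it was -0.09, with 1 called higher and 1 lower without the wild-type pool. Among the 4 measured CCN and thrombospondin relatives, Ccn5 was called lower after induction, at 343 in the induced pool against 515 in the uninduced pool, with a list median of -0.24 over the uninduced pool and 0.04 over SM22-rtTA. In hypoxia 0 of 4 were called, with a median of 0.28 over wild type, but -0.47 over the transgenic pools, where 0 were higher and 2 lower. Ccn1 was at 3424 in the hypoxic pool against 2669 in wild type, 3573 in SM22-rtTA and 3636 in the uninduced pool. Ccn5 was highest in the hypoxic pool, at 894 against 602, 751 and 515 in the same order, 1.48-fold over wild type.

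**Figure D4:**
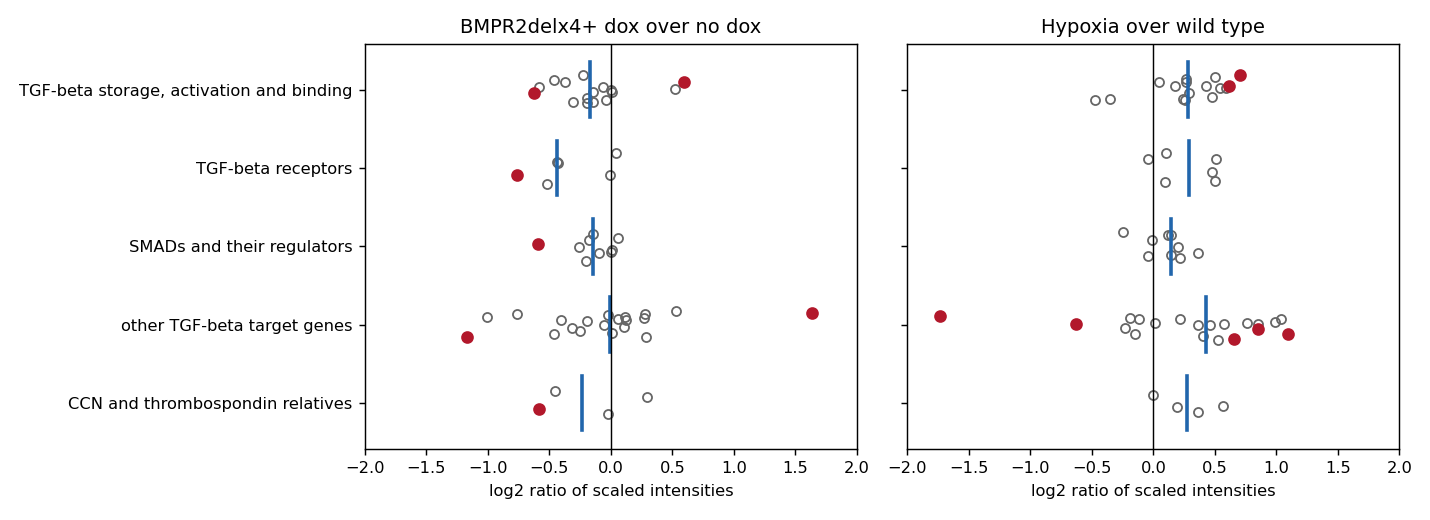
Log2 ratio of measured genes on the 5 pathway lists for the induced over the uninduced pool (left) and hypoxia over wild type (right). Filled points were called, open points were not, and vertical bars are list medians, which run from -0.44 to -0.00 on the left and from 0.14 to 0.43 on the right.

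Genes with the most similar pattern over the 5 pools were sought for the 7 genes that spanned at least 1.5-fold, by the root mean square difference of log2 values centred on each gene's mean, among 6519 other genes above the floor in at least 4 pools. For Tgfb1 the nearest were Srd5a3 at 0.05 and Gtf2ird1 at 0.08, and for Tgfb2 Pcp4l1 and Itm2a, both at 0.10. For Tgfb3 they were Limd2 at 0.04 and Plagl1 at 0.05, for Ltbp3 Prkacb at 0.04 and Porcn at 0.05, and for Thbs1 Cdk14 at 0.06 and Spock2 at 0.07. For Tgfbi they were Ddit3 and Spryd3, both at 0.06, and for Skil Atp6v0a1 at 0.03 and Chst1 at 0.04.  Such likeness rests on 5 arrays and describes them only.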

How the data were processed

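Total RNA of whole lung, pooled over animals, was labelled with biotin and hybridised to 1 array for each of 5 conditions, per the labels. The deposited values were linear intensities, 1 for each of 22626 probe sets, none under 50; how the authors summarised, corrected and scaled them is not given in the sources used here. Log2 intensities were shifted (by -0.11 to 0.13) to equal medians over 9046 probe sets that exceeded each array's 50th percentile, and values under the 50th percentile of all scaled values were set to that floor. Gene names came from GEO's platform annotation and, by gene ID, from a RefSeq table on GRCm38.p6 for current symbols: 20380 had 1 gene (20351 matched by ID), 691 several and 1555 none. Of 12393 genes, 8597 exceeded the floor in 1 pool or more and count as measured. The probe set with the highest mean scaled intensity stood for a gene.

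There are no replicates, so no test was run; precision is limited by the number of arrays. The members, lists and rules were chosen with earlier results of these data known. Named genes were the 9 members, up to 4 called genes of each pathway list per main comparison (if none, the 2 of highest mean) and the 2 nearest genes in pattern. Alternatives covered the scaling, the floor, the fold, the gene summary and the control pools. Analyses used Python 3.11.15 with numpy 2.4.6 and pandas 2.3.3.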

Additional observations from a re-analysis of the deposited data

Results flagged for a closer look

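Of 63 measured genes (the 9 and the pathway lists), 2 were at least 1.5-fold lower after induction and at least 1.5-fold higher in hypoxia by the matched ratios, and neither was called. Lox, lysyl oxidase, which crosslinks collagen and elastin, was at 1754 in the induced pool, 2399 in the hypoxic pool, 2206 in SM22-rtTA, 3518 in the uninduced pool and 1211 in wild type. Its log2 ratios were -1.0 for induction and 0.99 for hypoxia. Cdkn1a, the cell cycle inhibitor p21, was at 1332 in the induced pool, 1578 in the hypoxic pool, 1766 in SM22-rtTA, 2264 in the uninduced pool and 876 in wild type, with log2 ratios of -0.76 and 0.85. For both genes the 2 matched controls were the extremes of the 5 pools and both raised-pressure pools lay between them. The difference between the 2 comparisons was not tested. Over all 8597 measured genes, 194 were apart in opposite directions by the same measure and 95 in the same direction. Beside 194 of 8597, 2 of 63 does not set the listed genes apart from the rest.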

How the results depend on the processing

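No paired analysis was possible because each condition has 1 array. For induction, 0 of 9 genes were called in either direction under all alternatives. For hypoxia, 0 were called lower under all of them, while the count called higher, 1 as reported, was 0 with values as deposited, with a floor at the 70th percentile, with the mean of probe sets, with the probe set of the lowest mean, when the wild-type pool was left out, and at 2-fold; quantile normalization gave 2, and the matched ratio alone 3. It was also 0 with the probe set of the highest mean log2 value, an alternative chosen after seeing the data, which gives Tgfb2 its second probe set. The Tgfb2 ratio of hypoxia over wild type ran from 0.00 to 1.41. The member median over wild type became 0.0381 for hypoxia with the probe set of the lowest mean, 0.29 for SM22-rtTA with a floor at the 70th percentile, and 0.17 for the uninduced pool with that floor, with the mean of probe sets and with the probe set of the lowest mean. With the mean of probe sets and with the probe set of the lowest mean, 2 in place of 1 of the 9 genes were at least 1.5-fold lower in the induced pool than in SM22-rtTA, and 0 in place of 1 higher in the induced than in the hypoxic pool. With these 2 settings and with a floor at the 70th percentile, 1 in place of 2 was higher in SM22-rtTA than in the uninduced pool. Over wild type, SM22-rtTA was higher in 3 in place of 6 with the mean of probe sets, and the uninduced pool in 2 in place of 4 with the probe set of the lowest mean. With values as deposited, 1 in place of 0 was lower in hypoxia than in the transgenic pools. Of 576 ratios of single genes recomputed, 18 changed sign, 7 of them under another scaling. Over all measured genes, hypoxia gave 364 higher and 414 lower calls as reported. The deposited scale gave 301 higher and 502 lower, and quantile normalization 487 higher and 394 lower. With no replicates, the spread taken for these arrays mixes noise with genotype and doxycycline.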

Other observations

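A probe set that the platform annotation gives to both Pald1 and Thbs1 was left out of Thbs1 above. It read 1319 in the induced pool, 1609 in the hypoxic pool, 1245 in SM22-rtTA, 2046 in the uninduced pool and 972 in wild type. Wild type was the lowest pool here too, while the uninduced pool was the highest, unlike both Thbs1 probe sets.

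Klf10, an early TGF-beta response gene chosen here after its values were seen, was at 726 in the induced pool, 766 in the hypoxic pool, 796 in SM22-rtTA, 603 in the uninduced pool and 374 in wild type. It was 2.05-fold higher in hypoxia than in wild type and inside the normal-pressure range.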
